A study of Mus musculus with 6 samples.

Results

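AP-1 is a family of dimeric transcription factors of the basic leucine zipper (bZIP) class, assembled from FOS, JUN and ATF proteins, and the early growth response (EGR) factors are zinc finger transcription factors that are induced with them. The genes described here are Fos, Fosb, Fosl1, Fosl2, Jun, Junb, Jund, Atf3, Egr1 and Egr2. These 10 genes were chosen by symbol, through the Ensembl identifier of each row, out of 29616 genes measured by RNA sequencing in mouse bone cells. All 10 were in the table, and all 10 had enough reads to be tested.

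The study asked how glucocorticoid excess changes cells of the osteoblast lineage, the cells that build bone. It compared 3 libraries from control mice with 3 from mice that received the synthetic glucocorticoid dexamethasone every day at a dose of 0.08 µg/g, over 4 weeks and from an age of 8 weeks. The labels give the strain of all mice as C57BL/6, the study's methods list its wild-type mice as C57BL/6J, and the labels name no other allele or agent. The labels call the material bone cells, whereas the study's methods describe Osteocalcin-positive cells sorted after collagenase digestion of bones without marrow, which were fixed and permeabilized for the staining. The sources used here do not say whether a library stands for 1 mouse or for several, so the p-values measure only the spread between these libraries. The libraries held between 72596611 and 89910728 reads. Values of single libraries follow the order of replicates 1, 2 and 3 and are normalized counts, that is reads of a gene divided by a size factor of its library, unless another scale is named.

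Immediate early genes such as Fos, Jun and Egr1 are transcribed within minutes of a stimulus, when MAP kinases act on factors already bound at their promoters, and their products then regulate slower target genes. FOS proteins cannot pair with themselves and bind DNA only as partners of JUN proteins, while JUN proteins can also pair with each other. In bone, FOSL1 and FOSL2 are known as regulators of osteoblasts and matrix production, FOS is required for osteoclasts, and the glucocorticoid receptor is known to restrain AP-1 through direct contact.

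The label was checked against marker genes. Type I collagen, the main protein of bone matrix, was abundant in every library, with Col1a2 at 1024281, 1086854 and 1085158 normalized counts in the control libraries and at 555458, 496245.5 and 496400.4 in the dexamethasone libraries. The osteocalcin gene Bglap was low, with 98.2, 102 and 122 normalized counts in the control libraries and 9.54, 12.0 and 15.1 in the dexamethasone libraries. Bglap2, another osteocalcin gene of the list, was named after its values were seen. It had 339, 333 and 300 normalized counts in the control libraries and 29.6, 30.5 and 33.7 with dexamethasone. A gene was called at a limma adjusted p under 0.05 and an absolute log2 fold change of at least 1. Of all tested genes, 10.6% were called lower and 11.7% higher. Of the 10 osteoblast and osteocyte markers, all tested, 8 were called lower and 1, the osteocyte gene Dmp1, was called higher, with 41.3, 38.2 and 36.0 normalized counts in the control libraries against 5981, 5605 and 5331 with dexamethasone. Their summed normalized counts were 1976631, 2082188 and 2103791 in the control libraries and 851498, 764736 and 757071.5 in the dexamethasone libraries. These sums depend on the genes listed: Spp1, another bone matrix gene, is not among them and is given with the AP-1 targets, and its rise was about as large as the fall of the sums. In such bulk samples, fewer cells of a type and less RNA per cell cannot be told apart.

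Markers of other cells were mostly low, but some of them moved with the treatment. Among 5 genes of blood cells in general, with Itgb2 the most abundant, the pan-leukocyte gene Ptprc had 2 to 5 reads in every library. The sum of these genes was 129, 116 and 92.3 normalized counts in the control libraries and 775, 815 and 823 in the dexamethasone libraries. In this list 2 genes (Itgb2 and Cd53) were called higher and 2 (Laptm5 and Coro1a) lower, beside 11.7% and 10.6% of all tested genes. Testing required a mean of 10 normalized counts over all libraries. Laptm5 and Coro1a reached 10 only in the group where they were higher and so had to differ to be tested, which makes their calls no support, and the same holds for Atp6v0d2, Acta1, Batf3, Mmp9 and Zbtb16 below. The 4 macrophage markers in the table, led by Lyz2, summed to 1483, 1468 and 1464 normalized counts in the control libraries and to 1599, 1464 and 1653.5 in the dexamethasone libraries. Within that list Cd68 and Cd14 were called higher and Lyz2 lower, beside 11.7% and 10.6% of all tested genes. Ctsk carried nearly all counts of the osteoclast list, which summed to 12879, 13492 and 13118 normalized counts in the control libraries and to 8627, 8219 and 8435 in the dexamethasone libraries. The difference of these sums rests on Ctsk, which was not called (log2 fold change -0.65). Less abundant genes of the list, named after their values were seen, did not all follow Ctsk. Atp6v0d2, the only one called, had 6.43, 1.96 and 7.03 normalized counts in the control libraries against 23.8, 42.5 and 32.6 with dexamethasone, and Ocstamp had 0, 6 and 1 reads against 20, 6 and 14. The groups of Oscar overlapped, at 14, 7 and 3 reads in the control libraries against 6, 12 and 6 with dexamethasone. Calcr had 0, 4 and 1 reads against 0, 0 and 1. The defining osteoclast marker Acp5 had 0 reads in each control library, against 7, 26 and 17 reads with dexamethasone, at least 6.58-fold higher against a limit of 3 reads per library. Col2a1 carried the chondrocyte list, which summed to 1503, 1533 and 1552 normalized counts in the control libraries and to 6181, 5435 and 5458 in the dexamethasone libraries. Col2a1 was called higher, whereas Matn3, not tested and named after its values were seen, had 8, 12 and 12 reads with control treatment against 0, 2 and 3 with dexamethasone, and Acan had at most 6 reads in any library.

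The remaining marker lists were called in no more than 1 gene each, where 22.3% of all tested genes were called. Neutrophil markers, led by S100a9, had 0 of 4 tested genes called by limma, edgeR and DESeq2 (1 at an unadjusted p under 0.05) and summed to between 771 and 799.6 normalized counts in the control libraries and between 888 and 1043 in the dexamethasone libraries. The endothelial list, led by Kdr, had 0 of 3 tested genes called by limma, edgeR and DESeq2 (2 at an unadjusted p under 0.05), and its sums ran from 363 to 398 normalized counts in the control libraries and from 429 to 475 in the dexamethasone libraries. The muscle list, led by Mylpf and with Acta1 called lower, summed to between 62.4 and 78.3 normalized counts with control treatment and between 55.6 and 72.5 with dexamethasone. Erythroid markers (led by Alas2), lymphoid markers (led by Cd79a) and adipocyte markers (led by Adipoq) summed to at most 49.1, 8.26 and 9.18 normalized counts in any library. Hbb-bt, Hba-a1, Cdh5, Cidec, Lep and Col9a1 had 3 reads or fewer in all 6 libraries. The part of these cell types in the results below was not tested.

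Of the 10 AP-1 and EGR genes, 7 were called, which means a limma adjusted p under 0.05 together with an absolute log2 fold change no smaller than 1. Among all 17442 genes tested, 22.3% were called. Fosl1, Jun, Egr1 and Egr2 rose with dexamethasone (4 of 10, beside 11.7% of all tested genes), and Fosl2, Jund and Atf3 fell (3 of 10, beside 10.6%). Fos, Fosb and Junb were not called. By the adjusted p alone 9 of the 10 passed, where 72.5% of all tested genes did, and the values of the 3 control and 3 dexamethasone libraries did not overlap for 9 of the 10, where this held for 74.7% of all tested genes. Both of these last shares are high across the whole table. The median log2 fold change of the 10 genes was 0.57, beside 0.000712 over all tested genes. Once every library was set to the same total these medians were 0.45 and -0.113, and after quantile normalization 0.57 and -0.0746. The directions of the 7 called genes were the same under these scalings.

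**Figure D1:**
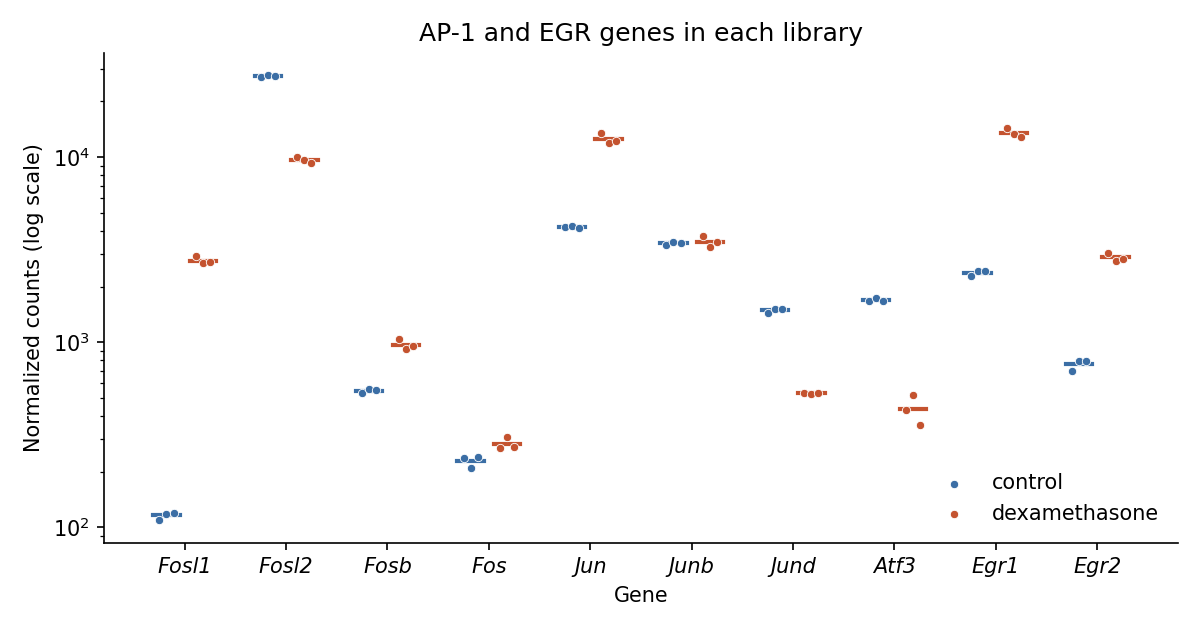
Normalized counts of the 10 AP-1 and EGR genes on a log axis, 1 point per library and a bar at the mean of 3 libraries, control in blue and dexamethasone in red. Fosl1, Jun, Egr1 and Egr2 lie higher with dexamethasone, Fosl2, Jund and Atf3 lie lower, and the points of Junb overlap.

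Within the FOS family, Fosl1 and Fosl2 moved in opposite directions. Fosl1 (ENSMUSG00000024912) encodes FRA-1, a FOS protein without a strong transactivation domain. It had 109, 118 and 120.4 normalized counts in the control libraries, against 2908, 2676 and 2709 in the dexamethasone libraries. Every dexamethasone library stood far above every control library, and the libraries of each group lay close together. Mean normalized counts rose 23.8-fold, to 2765 ± 126 from 116 ± 5.94 (SD, n = 3 each). On the log2 scale the difference was 4.56 ± 0.0693 (standard error; limma adjusted p = 9.36e-26), the largest of the 10 genes. In the GENCODE M21 annotation, exons of Ccdc85b on the opposite strand cover 57.2% of the exon bases of Fosl1. Ccdc85b, named for this overlap, had 2151, 2433.5 and 2394 normalized counts in the control libraries and 4055, 3765 and 4106 in the dexamethasone libraries. The strand setting of the authors' count is not given in the sources used here, and without it reads of the 2 genes cannot be told apart.

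Fosl2 (ENSMUSG00000029135) encodes FRA-2, the closest relative of FRA-1 in this family. Its normalized counts were 27224, 27679 and 27456 in the control libraries and 9992, 9599 and 9348 in the dexamethasone libraries. The 2 groups were wide apart, with all control libraries high and all dexamethasone libraries low. The mean fell from 27453 ± 227 (SD, n = 3) to 9646 ± 325 (SD, n = 3), a level 2.85-fold lower (log2 fold change -1.51, standard error 0.0352, limma adjusted p = 4.58e-22). No other gene overlaps its exons in the annotation.

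Fosb (ENSMUSG00000003545), whose product is a FOS protein of the immediate early response, had 531, 563 and 552 normalized counts in the control libraries and 1039.7, 918 and 955 in the dexamethasone libraries. The groups did not overlap, and the mean was 1.77-fold higher with dexamethasone. Its log2 fold change of 0.82 (95% interval 0.69 to 0.95, limma adjusted p = 2.24e-11) stayed under the cut-off of 1, so Fosb was not called. Fos (ENSMUSG00000021250), the prototype of the family, had 237, 208 and 239.9 normalized counts in the control libraries and 268, 308 and 273 in the dexamethasone libraries. Here the gap between the highest control library and the lowest dexamethasone library was narrow. Its log2 fold change of 0.31 (95% interval 0.10 to 0.52, limma adjusted p = 0.00769) was also under the cut-off, and the adjusted p ranged from 0.00233 to 0.0968 over all alternatives. The highest adjusted p came at the same total, where the log2 fold change of Fos was 0.196 and did not pass.

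Levels of different genes can be compared only per length, so the family was also expressed as normalized counts per kb of exon. On this scale Fosl2 made up 92.2, 92.3 and 91.9% of the summed FOS family in the control libraries and 37.6, 38.3 and 37.6% in the dexamethasone libraries. Fosl1 made up 1.76, 1.88 and 1.92% in the control libraries and 52.1, 50.9 and 51.9% in the dexamethasone libraries. In the control libraries the family was thus almost entirely Fosl2, and in the dexamethasone libraries it was mostly Fosl1 and Fosl2 together. Fosb made up 2.85 ± 0.0635% (SD, n = 3) with control treatment and 5.90 ± 0.198% (SD, n = 3) with dexamethasone, and Fos made up 3.16 ± 0.254% and 4.58 ± 0.461% (SD, n = 3 each). Which of Fosl1 and Fosl2 was higher with dexamethasone depended on the length used. By the longest transcript of each gene their shares were 44.3% and 44.1%, and without a length correction 20.2% and 70.6%. The summed family was lower with dexamethasone, at 3078 ± 23.3 (SD, n = 3) against 2632 ± 96.7 (SD, n = 3) normalized counts per kb, a ratio of 0.855 that was between 0.437 and 0.855 over the 3 scalings and 3 length rules.

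**Figure D2:**
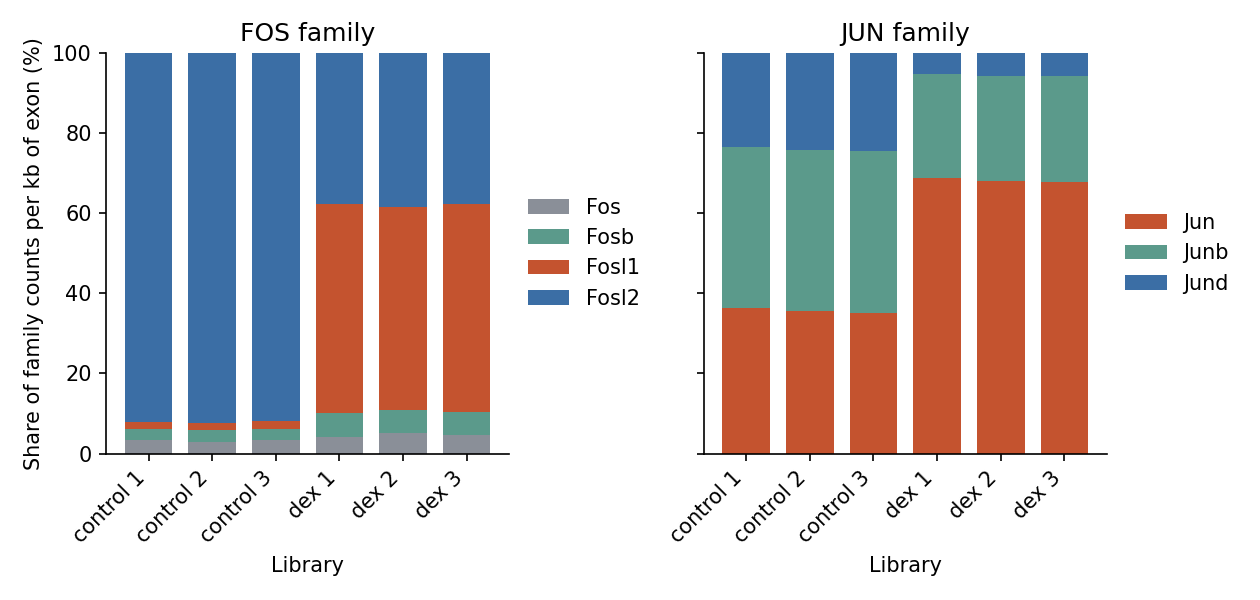
Stacked bars give the share of each gene in the summed normalized counts per kb of exon of its family in each library (percent, from 0 to 100), for the FOS family on the left and the JUN family on the right, with dex for dexamethasone. Fosl2 takes over 91% of the FOS family in the control libraries and under 39% in the dexamethasone libraries, where Fosl1 takes over 50%, although by the longest transcript Fosl1 and Fosl2 take 44.3% and 44.1%. Jun goes from under 37% of the JUN family to over 67%.

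The 3 JUN genes each behaved differently. Jun (ENSMUSG00000052684) encodes the strongest activator among the JUN proteins and is annotated as a single exon. It had 4215, 4245 and 4136 normalized counts in the control libraries and 13554, 11868 and 12272 in the dexamethasone libraries. All dexamethasone libraries lay above all control libraries, with replicate 1 the highest of them. The level was 2.99-fold higher, or 1.58 on the log2 scale (standard error 0.0417, limma adjusted p = 5.84e-21). Junos, an antisense gene that covers 7.28% of the exon bases of Jun and is named for this overlap, had 130.4, 130.1 and 106 normalized counts in the control libraries and 1513, 1523 and 1502 in the dexamethasone libraries. Junos rose by 3.62 on the log2 scale (limma adjusted p = 3.53e-22), and the limit on strand given for Fosl1 holds for this pair as well.

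Junb (ENSMUSG00000052837) encodes a JUN protein with weaker transactivation, which can oppose JUN at some promoters and takes part in bone formation. Its normalized counts were 3370.2, 3477 and 3420.1 in the control libraries and 3728, 3289.7 and 3471 in the dexamethasone libraries. The groups overlapped, and the dexamethasone libraries held both the highest and the lowest value. The log2 fold change was 0.03 (95% interval -0.06 to 0.12, limma adjusted p = 0.56). It turned to -0.0851 (limma adjusted p = 0.0352) at the same total, where the median of all genes was -0.113, and to -0.122 (limma adjusted p = 0.00327) after quantile normalization, and its adjusted p ranged from 0.00327 to 0.911 over all alternatives, so no direction is given for Junb. Prdx2, on the opposite strand, covers 7.52% of its exon bases and had a log2 fold change of -0.18.

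Jund (ENSMUSG00000071076), usually the most constantly expressed JUN gene and also of a single exon, had 1434, 1522 and 1511.5 normalized counts in the control libraries and 531, 523 and 534 in the dexamethasone libraries. The low group was tight and lay far under the control libraries. The mean fell from 1489 ± 47.9 (SD, n = 3) to 529 ± 5.5 (SD, n = 3), a change of -1.49 on the log2 scale (standard error 0.056, limma adjusted p = 9.2e-18). An antisense gene, Gm11175, covers 52.6% of the exon bases of Jund and was not analysed here, so reads of this pair cannot be told apart either.

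Per kb of exon, Jun made up 35.6 ± 0.566% (SD, n = 3) of the summed JUN family in the control libraries and 68.2 ± 0.449% (SD, n = 3) in the dexamethasone libraries. Junb went from 40.2 ± 0.0581% to 26.3 ± 0.233% and Jund from 24.1 ± 0.508% to 5.51 ± 0.317% (SD, n = 3 each). The share of Junb was thus lower although its own level differed little between the groups. The order of Jun and Junb in the control libraries depended on the length used, since without a length correction Jun made up 46.1% and Junb 37.6%, and Jund then made up 3.20% with dexamethasone. The summed family was 3697 ± 54.4 normalized counts per kb with control treatment and 5777 ± 372 with dexamethasone (SD, n = 3 each), a ratio of 1.56 that was between 1.35 and 1.82 over the scalings and length rules. For each of the 7 genes of the FOS and JUN families, the shares of the 3 control and the 3 dexamethasone libraries did not overlap, where this held for 74.7% of the levels of all tested genes, and shares within a family are tied because they sum to 100%. An exact two-sided permutation test of 3 against 3 libraries cannot give a p below 0.1, so it passes no threshold here.

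Atf3 (ENSMUSG00000026628) encodes a stress-induced bZIP factor that pairs with JUN proteins and represses many promoters as a homodimer. It had 1671, 1741 and 1662 normalized counts in the control libraries and 429, 522 and 359 in the dexamethasone libraries. All dexamethasone libraries were low, and they differed among themselves more than for any other of the 10 genes, with a coefficient of variation of 18.7%. The mean fell from 1691 ± 43.2 (SD, n = 3) to 437 ± 81.7 (SD, n = 3), a level 3.87-fold lower, or -1.97 on the log2 scale (standard error 0.0855, limma adjusted p = 1.9e-16).

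Both EGR genes rose. Egr1 (ENSMUSG00000038418) encodes a zinc finger activator of growth and matrix genes that is induced through MAP kinase signalling. It had 2294, 2425 and 2417.5 normalized counts in the control libraries and 14293, 13365 and 12914 in the dexamethasone libraries. The groups were far apart, and the mean rose 5.69-fold, from 2379 ± 73.3 (SD, n = 3) to 13524 ± 703 (SD, n = 3). This was 2.51 on the log2 scale (standard error 0.0404, limma adjusted p = 2.82e-25). Egr2 (ENSMUSG00000037868), known for its part in myelination and hindbrain patterning, had 697, 796 and 794 normalized counts in the control libraries and 3017, 2763 and 2832.5 in the dexamethasone libraries. Again no library of 1 group reached into the other. The level was 3.77-fold higher, which was 1.91 on the log2 scale (standard error 0.0552, limma adjusted p = 3.71e-20).

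The list of EGR relatives and NAB corepressors held 5 genes, of which 4 were in the table and 3 were tested. Egr3, a close relative of Egr2, had 364, 386 and 441 normalized counts in the control libraries and 2810.2, 2510.3 and 2553.5 in the dexamethasone libraries. It was 2.73 higher on the log2 scale (limma adjusted p = 8.97e-22). Egr3 was the only one of the list called, where 22.3% of all tested genes were called. Nab1 and Nab2 encode corepressors that bind EGR proteins, and Nab2 is itself an EGR1 target. Their log2 fold changes were -0.16 and 0.83, both under the cut-off. In normalized counts per kb, Egr1, Egr2 and Egr3 summed to 845 ± 39.8 (SD, n = 3) in the control libraries and 4457 ± 225 (SD, n = 3) in the dexamethasone libraries. Egr1 made up 62.8% of this sum in the control libraries and 67.7% in the dexamethasone libraries on average.

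The order of the 10 genes per kb of exon differed between the groups. In the control libraries Fosl2 was the highest, at 2836 ± 23.5 (SD, n = 3) normalized counts per kb, followed by Junb at 1487 ± 23.1, Jun at 1317 ± 17.6 and Jund at 893 ± 28.7 (SD, n = 3 each). Atf3, Egr1 and Egr2 came next, and Fos, Fosb and Fosl1 were last at 97.1 ± 7.38, 87.8 ± 2.61 and 57.1 ± 2.92 normalized counts per kb (SD, n = 3 each). Fos and Fosb were the only neighbours in this order whose libraries overlapped. With dexamethasone Jun was the highest, at 3940.0 ± 276 normalized counts per kb, then Egr1 at 3016 ± 157, Junb at 1519 ± 95.7, Fosl1 at 1359.9 ± 61.8 and Fosl2 at 996.5 ± 33.6 (SD, n = 3 each). Junb and Fosl1 were the only neighbours that overlapped there. Fos was the last, at 120.4 ± 9.35 (SD, n = 3) normalized counts per kb of exon. These ranks depend on the length used: by the longest transcript Fosb was above Fos in the control libraries (145 ± 4.31 against 108 ± 8.24 normalized counts per kb, SD, n = 3 each), and with dexamethasone Fosl1 overlapped Fosl2 and not Junb.

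Genes upstream of AP-1 were mostly not called, as were most of all tested genes, of which 22.3% were called. Of the 21 genes of the RAS-RAF-ERK, JNK and p38 cascades, all tested, 2 were called higher and 0 lower by limma, and edgeR and DESeq2 also called 0 lower, while 5 had a negative log2 fold change with an unadjusted p under 0.05. Both called genes belong to the p38 arm, but members of this arm did not share a direction. Map2k3, a kinase that activates p38, had 7688, 8331 and 7719.9 normalized counts in the control libraries and 28335, 25572 and 26210.2 in the dexamethasone libraries, a log2 fold change of 1.75. Mapk11, which encodes p38 beta, had a log2 fold change of 1.35. Mapk14, a further p38 gene named after its values were seen, also rose, by 0.64, and was not called. Map2k6, the other p38-activating kinase, was named after its values were seen and had 335, 393 and 390.2 normalized counts in the control libraries and 196, 191 and 206 with dexamethasone. Its log2 fold change of -0.91 was short of the cut-off, but it was -1.02 at the same total, where Map2k6 was called lower. Braf, a RAF kinase and among the most abundant genes of the list, had a log2 fold change of -0.47 and was not called. The median of the list was 0.05, and it was -0.0672 at the same total and -0.0984 after quantile normalization.

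Of 12 transcription factors that act on immediate early promoters, 1 was called lower and 0 higher by limma, edgeR and DESeq2 alike. Over all tested genes limma called 10.6% lower and 11.7% higher. In the list 5 genes had a positive log2 fold change with an unadjusted p under 0.05. Mef2c, a MADS box factor known in osteocytes and muscle, fell from 4946.5, 5050.1 and 5241 normalized counts in the control libraries to 1788, 1827 and 1688 in the dexamethasone libraries, a log2 fold change of -1.52. Its relative Mef2a and the SRF coactivators Mrtfa and Mrtfb had log2 fold changes of -0.09, 0.34 and -0.03. The groups of Mrtfb overlapped. The median of the list was -0.06, and it was -0.17 at the same total and -0.259 after quantile normalization.

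Most of the feedback inhibitors of MAP kinase signalling rose. Of 11 tested genes, 8 were called higher and 0 lower by limma, edgeR and DESeq2. Over all tested genes limma called 11.7% higher and 10.6% lower. In the list 1 gene had a negative log2 fold change at an unadjusted p under 0.05, and the median log2 fold change was 1.64. Dusp6, a phosphatase of ERK that is transcribed in response to ERK activity, had 872, 849 and 848 normalized counts in the control libraries and 17730.1, 17042 and 17542 in the dexamethasone libraries. These groups stood further apart than those of any other gene of the list, at 4.35 on the log2 scale (limma adjusted p = 3.59e-30). Dusp5, a nuclear ERK phosphatase, and Dusp4, a nuclear phosphatase of ERK and JNK, had log2 fold changes of 3.80 and 3.55. Spred1 and Spred2, membrane proteins that restrain RAS and RAF, rose by log2 fold changes of 1.47 and 1.62. Dusp10, Spry1 and Spred3, named after their values were seen, had log2 fold changes of -0.40, 0.20 and 0.51 and were not called.

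**Figure D3:**
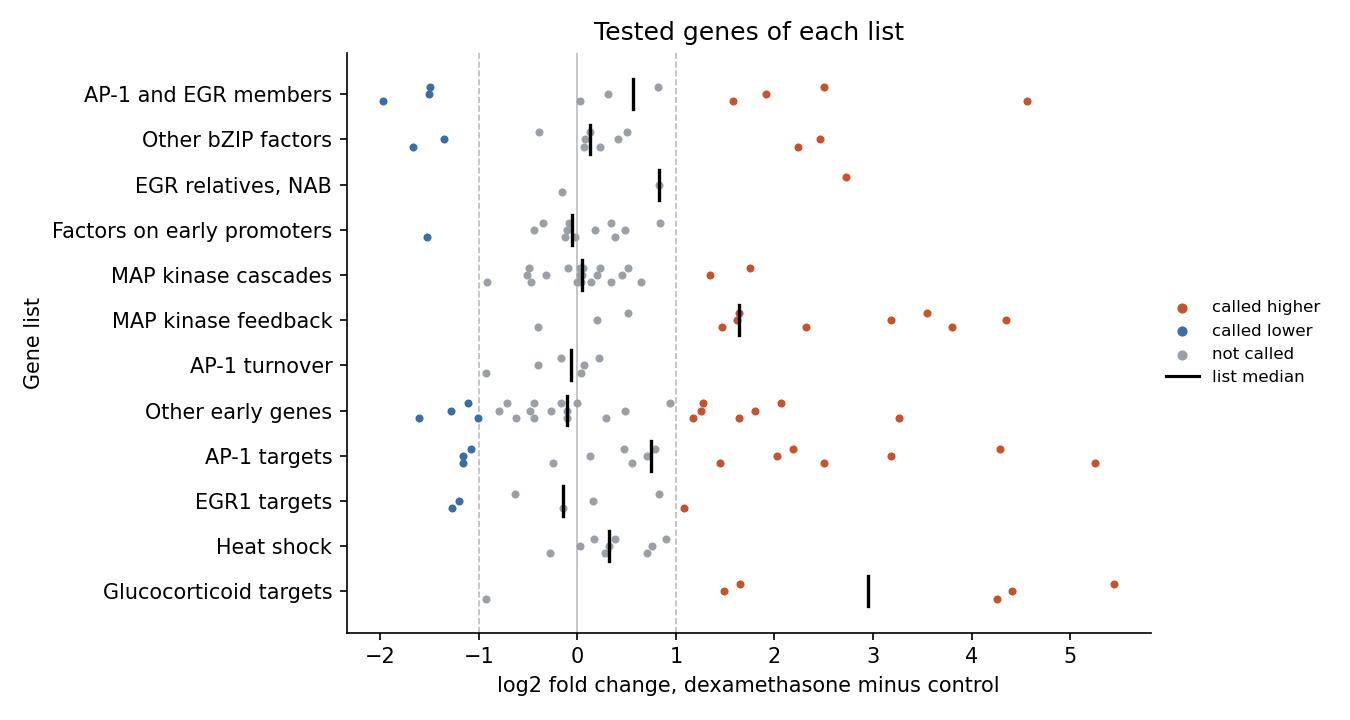
Log2 fold change (dexamethasone minus control) of every tested gene in 12 lists, 1 point per gene, with genes called higher in red, called lower in blue and not called in grey, a black bar at the median of each list, and dashed lines at the cut-offs of -1 and 1. The feedback inhibitors of MAP kinase signalling (median 1.64) and the row of glucocorticoid targets (median 2.95) lie mostly to the right of the cut-off. The row of glucocorticoid targets also holds the receptor gene Nr3c1. Its median is 1.65 among genes with a mean of at least 100, which leaves out Zbtb16. The cascades themselves have a median of 0.05, which is below 0 at the same total and after quantile normalization.

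Other bZIP factors can pair with AP-1 proteins or compete for their sites. Of 14 such genes, 13 were in the table and 11 were tested. In this list 2 were called higher and 2 lower, beside 11.7% and 10.6% of all tested genes. The median log2 fold change was 0.13, which was 0.0184 at the same total and -0.00744 after quantile normalization. Maff, a small MAF protein without an activation domain, had 206, 201 and 237 normalized counts in the control libraries and 1237, 1131.5 and 1178 in the dexamethasone libraries, a log2 fold change of 2.46. Batf3, a factor of dendritic cells that pairs with JUN proteins, rested on few reads, with 4.59, 2.94 and 2.64 normalized counts in the control libraries and 14.3, 19.6 and 25.6 in the dexamethasone libraries. Its log2 difference was 2.24, its call adds no support because only the dexamethasone mean passed the filter, and without dexamethasone replicate 3 its mean was too low for it to be tested. Maf, a large MAF protein, fell with a log2 fold change of -1.67, and so did Ddit3 with one of -1.36, a factor of the unfolded protein response that was named after its values were seen. The most abundant genes of the list, Atf4, Nfe2l2 and Mafg, had log2 fold changes of 0.23, 0.41 and 0.50 and were not called. After quantile normalization these were 0.0658, 0.207 and 0.312.

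Regulators of AP-1 protein turnover had 0 of 6 genes called by limma, edgeR and DESeq2, where limma called 22.3% of all tested genes. Of the 6 genes, 4 had an unadjusted p under 0.05. The median of the list was -0.06, and it was -0.178 at the same total and -0.27 after quantile normalization. Cop1, a ubiquitin ligase that targets JUN proteins, had 16852, 17278 and 17317 normalized counts in the control libraries and 9062, 9073 and 8875.5 with dexamethasone. Its log2 fold change of -0.93 was short of the cut-off, but it was -1.04 at the same total and -1.14 after quantile normalization, where Cop1 was called lower. Itch, another ligase for JUN proteins, and Cops5, first described as a JUN coactivator, had log2 fold changes of -0.16 and 0.04.

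Further immediate early genes moved both ways. Of 25 tested genes out of 26, 7 were called higher and 4 lower, beside 11.7% and 10.6% of all tested genes. The median log2 fold change was -0.11, which was -0.219 at the same total and -0.17 after quantile normalization. Ccn2, a matricellular protein also called CTGF, had 2663, 2593 and 2503 normalized counts in the control libraries and 26233, 23698 and 24544 in the dexamethasone libraries, a log2 fold change of 3.26. Klf10, a zinc finger factor induced by TGF-beta, and Plk3, a stress kinase, had log2 fold changes of 2.07 and 1.80. Called lower were Zfp36l1, Nr4a3, Gadd45b and Btg2, named after their values were seen, with log2 fold changes of -1.61, -1.28, -1.10 and -1.01. The last of these was -0.998 without dexamethasone replicate 3, short of the cut-off. The abundant genes Mcl1 and Ccn1 had log2 fold changes of 0.49 and -0.80 and were not called.

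Textbook targets of AP-1 included some of the largest differences. Of 16 tested genes out of 18, 7 were called higher and 3 lower, beside 11.7% and 10.6% of all tested genes. The median log2 fold change was 0.74. This median was 0.547 after quantile normalization and 1.45 among genes with a mean of at least 100. Spp1, which encodes the matrix protein osteopontin, had 32469, 34314 and 34003 normalized counts in the control libraries and 1291250.2, 1246067 and 1301705 in the dexamethasone libraries, 5.25 higher on the log2 scale (limma adjusted p = 1.43e-29). Timp1, an inhibitor of matrix metalloproteases, rose by a log2 fold change of 4.28, and Mgp, an inhibitor of calcification, by one of 3.18. Plau, Mmp9 and Il11, named after their values were seen, were called lower with log2 fold changes of -1.16, -1.16 and -1.08. Mmp9 passed the filter only through the control libraries, so its call adds no support, and without dexamethasone replicate 2 its log2 fold change was -0.875 and it was not called. Of these genes called lower, 2 were called after quantile normalization and 1 with a pseudocount of 5. These genes also answer to other factors, and whether AP-1 acts on them was not tested here.

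Textbook targets of EGR1 gave a mixed picture. Of 7 tested genes out of 8, 1 was called higher and 2 lower, beside 11.7% and 10.6% of all tested genes. The median log2 fold change was -0.15, but it ranged from -0.261 at the same total to 0.0198 without control replicate 3, so no direction is given for the list. Tgfb1, the growth factor of bone matrix, had 3736.5, 4017 and 3879 normalized counts in the control libraries and 8709, 7975 and 8017 in the dexamethasone libraries, a log2 fold change of 1.09 that was 0.972 at the same total and 0.896 after quantile normalization, under the cut-off. Pdgfb, a growth factor for mural cells, and F3, the tissue factor of coagulation, fell with log2 fold changes of -1.27 and -1.21. Fn1, the most abundant of the list, encodes fibronectin and had a log2 fold change of -0.15. Icam1 had too few reads to be tested. Its mean passed the filter when control replicate 1, 2 or 3 was left out, through the group where it was higher, and 2 genes of the list were then called higher, a count that adds no support.

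A list of glucocorticoid targets and the receptor gene Nr3c1 was read as a check of the treatment labels. Of 6 tested genes, 5 were called higher and 0 lower by limma, edgeR and DESeq2, where limma called 11.7% and 10.6% of all tested genes. The gene with a negative log2 fold change, the receptor gene Nr3c1, had an unadjusted p under 0.05. Fkbp5, a cochaperone of the receptor, had 1829, 1897 and 1837.5 normalized counts in the control libraries and 42453, 37715 and 38299 in the dexamethasone libraries, a log2 fold change of 4.41. Sgk1, a kinase induced by the receptor, had a log2 fold change of 4.25. Zbtb16, a zinc finger repressor, had 0 reads in every control library and 37.2, 45.8 and 45.3 normalized counts in the dexamethasone libraries, at least 15.4-fold higher against a limit of 3 reads per library. It was tested only through the dexamethasone libraries, so the check of the labels rests on the other 4 genes called. Tsc22d3 and Per1, the other genes called, were named after their values were seen and had log2 fold changes of 1.65 and 1.49. The median of the list was 2.95, or 2.80 with Zbtb16 at its limit, and 1.65 among genes with a mean of at least 100, which leaves out Zbtb16. Nr3c1 had 19449, 20679 and 20284 normalized counts in the control libraries and 10746, 10720.4 and 10355 in the dexamethasone libraries, a log2 fold change of -0.92 that was -1.04 at the same total and -1.12 after quantile normalization, where it was called lower.

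Heat shock genes were included because digestion of tissue can raise them together with immediate early genes. Limma, edgeR and DESeq2 called 0 of the 9 tested genes, where limma called 22.3% of all tested genes. In the list 7 had a positive and 0 a negative log2 fold change with an unadjusted p under 0.05. The median log2 fold change was 0.32, which was 0.204 at the same total and 0.213 after quantile normalization. Summed over the list, the libraries had 216293, 221596 and 216588 normalized counts with control treatment and 309972, 302225 and 307025 with dexamethasone. Hspa8, Hspd1 and Hsp90aa1, the most abundant chaperone genes of the list, had log2 fold changes of 0.39, 0.70 and 0.90. The part of digestion in the levels of the AP-1 and EGR genes was not tested.

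Promoter sequence was examined because several of these genes rose or fell together and are known to be regulated through shared elements. The RefSeq promoter table (build GRCm38.p6) listed 12 windows for 8 of the 10 genes, and it did not list Fosl1 and Egr1. The 250 bases before each start were searched on both strands for the CArG box, the CRE octamer TGACGTCA and its 5-base core TGACG, the AP-1 heptamer TGANTCA, the EGR site GCGNGGGCG and the glucocorticoid receptor hexamer TGTTCT. The core lies within the octamer, so a match of the octamer is also a match of the core. Across all 32851 windows these were found in 1.47, 1.55, 17.8, 6.75, 4.7 and 16.1%, in that order. The core TGACG was in 7 of the 12 windows, which belong to 5 of the 8 genes (Fos, Fosb, Junb, Atf3 and Egr2, the last with overlapping windows), the EGR site in 2 windows (Fosb and Fosl2) and the CArG box in 4 windows of Egr2 only. The octamer, the AP-1 heptamer and the glucocorticoid receptor hexamer were in 0 of the 12 windows. Windows of Jun and Jund held none of the 6 motifs.

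The stretches that hold these matches are given to show their spacing, 5′ to 3′ on the strand of the gene, with the matched bases in capitals. Fos lies at chr12:85473640-85473939 (plus strand), Fosb at chr7:19309996-19310295 (minus strand), Fosl2 at chr5:32136222-32136521 (plus strand), Junb at chr8:84978699-84978998 (minus strand), Atf3 at chr1:191183284-191183583 (minus strand) and the Egr2 window shown at chr10:67537619-67537918 (plus strand), where each range is the whole window of the table.
Fos: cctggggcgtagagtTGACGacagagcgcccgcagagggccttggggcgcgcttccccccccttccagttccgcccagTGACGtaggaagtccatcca
Fosb: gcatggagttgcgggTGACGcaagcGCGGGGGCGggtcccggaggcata
Fosl2: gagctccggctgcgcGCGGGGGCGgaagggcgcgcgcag
Junb: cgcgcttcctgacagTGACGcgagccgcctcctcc
Atf3: ctattaatagcattaCGTCAgc
Egr2: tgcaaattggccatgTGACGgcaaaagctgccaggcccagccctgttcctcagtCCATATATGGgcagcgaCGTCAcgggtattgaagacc
In Fos the cores began 129 and 66 bases before the start, both on the plus strand of the gene. In Fosb the core and the EGR site began 60 and 50 bases before it, and in Egr2 a CArG box lay between 2 cores of opposite strand. A match is a description of letters and does not show that a factor binds there, and genes with the core were called higher (Egr2), lower (Atf3) or not at all (Fos, Fosb and Junb).

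Of all other tested genes, Mlkl and Katnbl1 were most like Fosl1 across the 6 libraries, by Pearson's r of log2 values, with r of 0.999978 and 0.999977. Mlkl, a necroptosis effector, had 3251, 3327 and 3332 normalized counts in the control libraries and 7311, 7141 and 7222 in the dexamethasone libraries. Such an r spans the gap between the groups, and 2622 genes (15% of those tested) reached r of at least 0.99.

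Dexamethasone replicate 1 had the highest value of its group for 7 of the 10 genes and for 47.8% of all tested genes, and control replicate 2 for 8 of the 10 and for 48.7% of all tested genes. With any of the 6 libraries left out, 4 of the 10 genes were called higher and 3 lower.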

How the data were processed

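RNA sequencing libraries of mouse bone cells were made with a stranded kit, 3 control and 3 dexamethasone, grouped by the treatment in the labels. The authors aligned and counted reads per gene with STAR 2.7.10a, and the deposited values are a signal, namely these counts divided by a DESeq2 1.36.0 size factor per library. The submitters' processing notes name the build GRCm39. The annotation release and the strand setting are not given in the sources used here. The columns of the treated libraries carry the abbreviation Dx, which was matched to the treated samples by number.

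All values (100%, within a tolerance of 0.001 reads) were whole multiples of the value of 1 read, which gave 83025489, 81186636 and 88354925 reads for the control libraries and 89910728, 75526030 and 72596611 for the dexamethasone libraries. A count of 0 allows up to 3 reads in a library, which covers counting error only. Replicates differed by more than sampling noise (chi-square per degree of freedom 3.27 to 26.1). Symbols from GENCODE M21 matched 28087 of 29616 identifiers.

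The 17442 genes whose mean reached 10 normalized counts were compared with limma 3.58.1 (R 4.3.3, mean-variance trend, two-sided) on log2(normalized count + 1), with Benjamini-Hochberg adjustment over all of them. Fold changes are on this scale, which understates those of low genes, while ratios are of mean normalized counts. Genes with an adjusted p under 0.05 and an absolute log2 fold change of at least 1 were called. The fit was tested on simulated data. Count tests on the recovered reads called 3944 genes with edgeR 4.0.16 and 3870 with DESeq2 1.42.0, beside 3894 with limma. Other alternatives were the pseudocount (0.5 or 5), the filter (none or a mean of 100), the scaling (same total or quantile), no trend, the replicate block and each library left out. Exon lengths are unions of exons in GENCODE M21.

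The members and gene lists were chosen with earlier results of these data known. Genes named are the 10 members, up to 3 tested genes of the highest mean and up to 3 called genes of the largest change in each pathway list, and in each marker list the most abundant gene and any marker at 3 reads or fewer throughout, with the 3 genes most like the member of the largest change. Other genes named complete a small count, overlap a member or encode osteocalcin, for which the cells were sorted. Some genes that this rule takes are not reported here.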

Additional observations from a re-analysis of the deposited data

How the results depend on the processing

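The 7 called AP-1 and EGR genes kept their call and direction in all 16 alternatives, including edgeR and DESeq2 on recovered reads (3831 and 3814 of the genes called by limma were also called). Of 55 named genes, 53 were tested in every alternative, and 46 of these kept direction and call. Batf3 and Zbtb16 were not tested in all of them. The number of differentially expressed genes was 12645 by adjusted p alone, and with a mean of at least 100 it was 2170 (1350 higher, 820 lower), as fewer genes were tested. With no filter beyond 1 read it was 5326 (2631 higher, 2695 lower), and at the same total 1775 were higher and 2163 lower, beside 2037 and 1857. It was 3888 to 3922 with each library left out.

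The log2 fold changes of Junb and Cops5 turned to -0.0851 and -0.0765 at the same total and to -0.122 and -0.169 after quantile normalization. That of Fn1 became 0 after quantile normalization. With each library left out, Junb ranged from -0.0182 (without dexamethasone replicate 1) to 0.0719 and Mrtfb from -0.0599 to 0.0124 (without dexamethasone replicate 2). The cause was not tested.

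By the longest transcript and without length correction, Fosl1 made up 1.38% and 0.409% of the FOS family in the control libraries and 44.3% and 20.2% with dexamethasone, and Fosl2 93.0% and 96.9% in the control libraries and 44.1% and 70.6% with dexamethasone.

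The replicate numbers did not pair the libraries (correlation of deviations -0.0999, -0.105 and -0.0199), and the replicate block gave 3897 differentially expressed genes and called the same 7 members. Depth limits statements on genes with few reads, such as Batf3, Zbtb16 and Acp5.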
